A study of Mus musculus with 7 samples.

Results

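The genes described here were 6 targets of the transcription factor NRF2 (Nqo1, Hmox1, Gclm, Gclc, Srxn1 and Txnrd1) and 3 metallothioneins (Mt1, Mt2 and Mt3). They were chosen by symbol, 9 of the 19257 genes in the table of normalized counts, and all 9 were abundant enough to be tested. Their levels were compared between 3xCR tumors (replicates 2, 3 and 4) and GPC6 tumors (replicates 1 to 4), each library coming from the brain of 1 mouse. Both groups carried Cas9 and guide RNAs against tumor suppressor genes, Trp53 and Nf1 included, which had been electroporated into the ventricular progenitors of mouse embryos in utero. A piggyBac transposon served as GFP label of the electroporated cells, as carrier of GPC6 or as both, and it is the GPC6 group that overexpressed GPC6, a heparan sulfate proteoglycan of the glypican family. Mice of both sexes and of the CD-1 and C57BL/6 backgrounds were used in the study, and the sex, age and background of the animal behind each library were not given in the sources used here. Tumor tissue was taken at the endpoint of the disease under fluorescence, so that edited cells and the neurons, glia, immune and vascular cells among them all gave RNA to a library. In such bulk tissue, fewer cells of a type and less RNA per cell cannot be told apart.

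NRF2, the product of Nfe2l2, is a transcription factor that KEAP1 holds in the cytoplasm and marks for degradation until electrophiles or oxidants modify KEAP1. It then enters the nucleus, pairs with a small MAF protein and binds antioxidant response elements near genes for glutathione synthesis, thioredoxin recycling, quinone detoxification and heme breakdown. Metallothioneins are small cysteine-rich proteins that bind zinc and copper and are induced through metal response elements by the zinc sensor MTF1, and also by glucocorticoids and inflammatory signals. In the brain Mt1 and Mt2 are known mainly from astrocytes, and Mt3 is the form enriched in neural tissue.

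The libraries held 7197692 to 18879762 reads on genes, and the member with the fewest reads, Nqo1, had 26 to 167 of them per library. In each library 3 reads, the most that a count of 0 would allow, were worth 1.64 to 4.64 normalized counts, a limit that covers counting error only. Gpc6 itself, the overexpressed gene, was at 217, 226 and 126 normalized counts in the 3xCR tumors, and the GPC6 tumors had 675, 263, 3434 and 5084 (here and below in the order of their replicate numbers). GPC6 replicate 2 was thus close to the 3xCR range. The first principal component of all 14782 genes tested took 54.8% of the variance and set GPC6 replicate 1 and 3xCR replicate 4 at its ends. GPC6 replicate 1 also had the highest summed level of 15 neuron markers, 79851 normalized counts against 10123 to 46506 in the other 6 libraries, and the lowest of 14 proliferation markers, 1417 against 8068 to 18625. All 13 astrocyte and all 15 neuron markers were above the limit of a count of 0 in every library, and the labels give the tissue as brain and the cell type as neural.

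The 9 genes differed more among tumors of 1 group than between the groups. With limma and Benjamini-Hochberg adjustment, 0 of 9 passed an adjusted p of 0.05, as did 0 of the 14782 genes tested (0.0%). At an unadjusted p under 0.05, 0 of 9 members passed, against 689 of all genes (4.66%, with 2.74% higher and 1.92% lower in the GPC6 tumors). On the recovered reads, edgeR called 0 genes and DESeq2 called 9 genes after adjustment, none of them a member. Unadjusted, edgeR passed 991 genes and DESeq2 1793, again with no member. With weights per library, limma called 1962 genes after Benjamini-Hochberg adjustment, 1 member (Mt2) among them. In 0 of 9 members were the libraries of one group all above those of the other, which was so for 934 of all genes (6.32%, with 2.8% higher and 3.52% lower). The mean log2 value was lower in the GPC6 tumors for 8 of 9 members and higher for Gclc, where 51.7% of all genes were lower. The median log2 fold change of the members was -0.20 against -0.02 over all genes. These p-values set the difference between the groups against the spread between tumors. All limma fold changes were taken after adding 1 to the normalized count, on the log2 scale, which draws those of rare transcripts toward 0. For Nqo1, the rarest member, this mattered little, with -0.464 after adding 1 and -0.469 after adding 0.5. On the recovered reads its log2 fold change was -0.30 with edgeR and -0.28 with DESeq2.

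**Figure D1:**
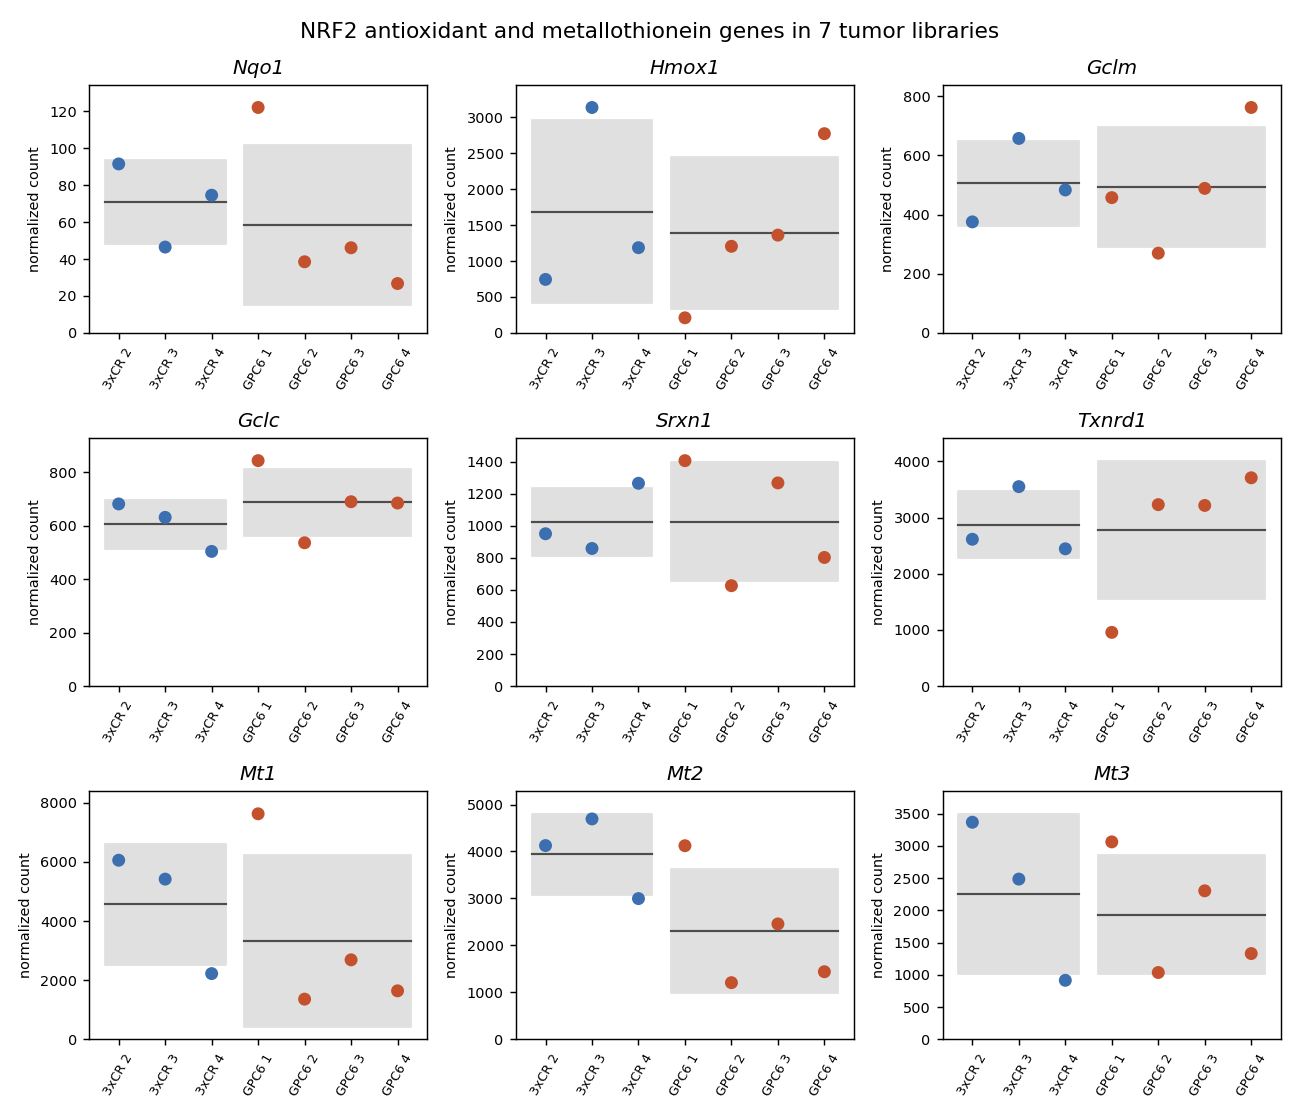
Normalized counts (linear axis from 0, a separate scale for each gene) of the 9 genes in the 3 3xCR and 4 GPC6 libraries, 1 point per tumor numbered by its replicate, with the group mean as a line and the SD as a gray band. The groups overlap in all 9 panels, and GPC6 replicate 1 stands at the top for Nqo1, Gclc, Srxn1 and Mt1 and at the bottom for Hmox1 and Txnrd1.

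**Figure D2:**
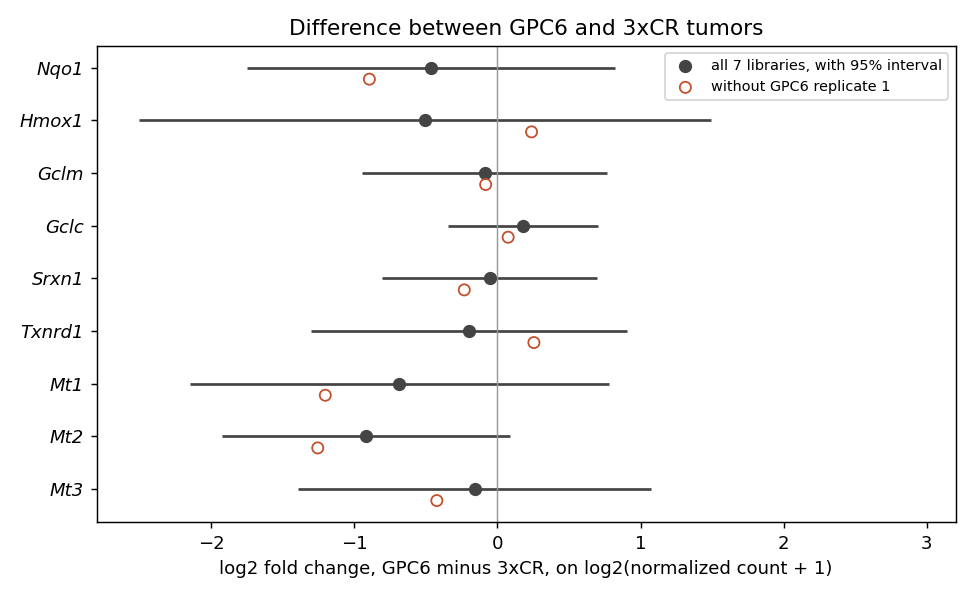
Log2 fold change of GPC6 against 3xCR for each gene with its 95% confidence interval from limma on all 7 libraries, beside the value without GPC6 replicate 1. All 9 intervals of the full comparison include 0, with that of Mt2 from -1.92 to 0.085, and the estimates for Hmox1 and Txnrd1 change sign without that library.

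The 3 metallothioneins are neighbors on chromosome 8, all on the plus strand. With Mt4 they span 43.1 kb (chr8:94137197-94180327, GRCm38), with Mt3 at chr8:94152607-94154146, Mt2 at chr8:94172664-94173568 and Mt1 at chr8:94179082-94180327. Mt4, the form of stratified epithelia, had at most 3.72 normalized counts in a library and was under the filter on low values. The promoters of the 3 expressed genes are shown because the metal response element is the site through which MTF1 induces them. Each run covers 250 bases before and 50 after the start of the gene (RefSeq, GRCm38.p6, plus strand) with the core of the metal response element in capitals, searched as TGCACNC or TGCGCNC on both strands, so that a match on the minus strand reads as its reverse complement.
Mt1, chr8:94178839-94179138: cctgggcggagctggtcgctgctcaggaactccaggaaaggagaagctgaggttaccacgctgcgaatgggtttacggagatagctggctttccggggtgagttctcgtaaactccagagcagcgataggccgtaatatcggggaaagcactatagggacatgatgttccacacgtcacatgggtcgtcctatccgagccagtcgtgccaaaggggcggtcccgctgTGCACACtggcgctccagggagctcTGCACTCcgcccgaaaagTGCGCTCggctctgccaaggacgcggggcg
Mt2, chr8:94172368-94172667: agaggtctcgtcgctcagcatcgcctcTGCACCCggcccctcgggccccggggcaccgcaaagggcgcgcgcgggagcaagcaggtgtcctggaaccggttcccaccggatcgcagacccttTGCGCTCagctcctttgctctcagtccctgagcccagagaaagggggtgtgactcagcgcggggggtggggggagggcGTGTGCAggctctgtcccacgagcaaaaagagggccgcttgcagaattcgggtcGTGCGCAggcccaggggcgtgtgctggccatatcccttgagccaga
Mt3, chr8:94152357-94152656: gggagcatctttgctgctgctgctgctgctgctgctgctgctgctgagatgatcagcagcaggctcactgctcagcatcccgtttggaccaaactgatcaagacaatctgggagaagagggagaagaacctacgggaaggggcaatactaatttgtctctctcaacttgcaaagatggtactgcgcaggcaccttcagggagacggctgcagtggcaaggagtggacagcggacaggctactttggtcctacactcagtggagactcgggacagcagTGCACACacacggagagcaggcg
Mt1 held 3 matches, Mt2 held 4 and Mt3 held 1, where 25.7% of 32851 promoters of this length held at least 1, 1.97% at least 3 and 0.517% at least 4. Among the NRF2 targets, Gclm held 3 matches as well and Srxn1 held 1, and the windows of Nqo1 and Txnrd1 held none. Several matches were thus not particular to the metallothioneins. In Mt1 the matches lay close to the RefSeq start, at -23, 3 and 21 (the first base of the match, with the start as 1). Those of Mt2 were spread over its window, from -223 to 5. This contrast holds for the starts used here, and other starts of these genes were not searched. These are matches of letters and were not tested as binding sites.

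Per length, the metallothioneins were the most abundant of the 9 genes. Averaged over the 7 libraries, Mt1 had 7029 normalized counts per kilobase of its first-numbered transcript, Mt2 had 5881 and Mt3 had 3863. Mt1 was above Mt2 in 6 of 7 libraries, with 3xCR replicate 4 the exception, and Mt2 was above Mt3 in all 7. The order of Mt1 depends on the transcript taken, since with the longest coding transcript its level was 3557 per kilobase, below Mt2 and Mt3. The transcripts of Mt1 and Mt2 share no run longer than 20 bases and those of Mt1 and Mt3 none longer than 27.

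Mt2, which binds zinc and copper as Mt1 does, showed the largest difference of the 9 genes in the comparison of all 7 libraries. It had 4125, 4693 and 2996 normalized counts in the 3xCR tumors, and 4122, 1205, 2456 and 1438 in the GPC6 tumors. GPC6 replicate 1 lay within the 3xCR range and the other 3 GPC6 tumors lay below it. The means were 3938 ± 864 (SD, n = 3) and 2306 ± 1327 (SD, n = 4), and the log2 fold change was -0.92 with an SE of 0.43. It did not pass the test (limma, unadjusted p = 0.0677, Benjamini-Hochberg adjusted p = 0.730). Without GPC6 replicate 1 the groups did not overlap for 2 of 9 members, Mt2 and Nqo1, as for 5.19% of all genes with the GPC6 tumors lower. The log2 fold change of Mt2 was then -1.26 (limma, unadjusted p = 0.00537, Benjamini-Hochberg adjusted p = 0.901). Leaving out GPC6 replicate 2, whose Gpc6 level was near that of the 3xCR tumors, gave -0.66 (limma, unadjusted p = 0.154, Benjamini-Hochberg adjusted p = 0.594), and these are the ends of the range over single libraries left out. With weights per library the difference passed (log2 fold change -0.99, limma, Benjamini-Hochberg adjusted p = 0.0299), in a fit that called 1962 of all genes. Exons of Mt2 share 432 bases with the antisense gene Gm45774, and whether the reads were counted by strand is not given in the sources used here.

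Mt1 had 6059, 5419 and 2222 normalized counts in the 3xCR tumors and 7629, 1357, 2688 and 1639 in the GPC6 tumors. GPC6 replicate 1 was the highest of all libraries. GPC6 replicates 2 and 4 lay below every 3xCR tumor and replicate 3 lay above 3xCR replicate 4. The log2 fold change was -0.68 with an SE of 0.63 (limma, Benjamini-Hochberg adjusted p = 0.766). Without GPC6 replicate 1 it was -1.20 (limma, unadjusted p = 0.0285, Benjamini-Hochberg adjusted p = 0.901), and the groups still overlapped. Leaving out GPC6 replicate 2 gave -0.37, 3xCR replicate 2 gave -0.42 and 3xCR replicate 4 gave -1.14. At that unadjusted threshold 2 of 9 members, Mt1 and Mt2, passed without GPC6 replicate 1, both lower in the GPC6 tumors, against 3.14% of 14608 genes in either direction and 1.78% lower.

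Mt3, first known as a growth inhibitory factor of the brain, differed least between the groups among the metallothioneins. Its normalized counts were 3367, 2485 and 914 in the 3xCR tumors and 3062, 1035, 2303 and 1329 in the GPC6 tumors. Each group held high and low tumors, with 3xCR replicate 4 the lowest of all 7. The log2 fold change was -0.16 with an SE of 0.53 (limma, Benjamini-Hochberg adjusted p = 0.939), and its 95% interval ran from -1.39 to 1.07.

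Astrocyte markers varied over the same libraries. Their summed level was 64783, 57133 and 16148 normalized counts in the 3xCR tumors and 72780, 29863, 55543 and 29006 in the GPC6 tumors, so that 3xCR replicate 4 was lowest and GPC6 replicate 1 highest. None of the 13 markers was at 0 in any library. Set against this sum, Mt3 was 5.20%, 4.35% and 5.66% in the 3xCR tumors and 4.21%, 3.47%, 4.15% and 4.58% in the GPC6 tumors. This ratio spanned 1.63-fold over the 7 libraries, where Mt3 itself spanned 3.68-fold. With Gfap left out of the sum, the ratio of Mt3 spanned 2.12-fold, from 4.88% in GPC6 replicate 2 to 10.3% in 3xCR replicate 4. Among all genes tested, the one with the profile most like that of Mt3 was Fgfr2, a receptor of fibroblast growth factors, with a root mean square difference of 0.0909 log2 units over the 7 libraries, where the median of all genes was 0.863.

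Mt2 against the same sum was 6.37%, 8.21% and 18.6% in the 3xCR tumors and 5.66%, 4.04%, 4.42% and 4.96% in the GPC6 tumors. The groups did not overlap, with all 4 GPC6 tumors lower, replicate 1 included, as was the case for 0.176% of all genes set against this sum. The two-sided exact permutation p was 0.057, the smallest that 3 against 4 libraries can give, and 0.114 after Benjamini-Hochberg adjustment over 6 such ratios. For Mt1 the ratio was 9.35%, 9.49% and 13.8% in the 3xCR tumors and 10.5%, 4.55%, 4.84% and 5.65% in the GPC6 tumors, where replicate 1 lay within the 3xCR range (exact permutation p = 0.171). Without Gfap, the most abundant of these markers, the groups did not overlap for Mt1 or for Mt2 (exact permutation p = 0.057 for each, adjusted 0.114), which 0.304% of all genes matched. For Mt3 the exact permutation p was 0.114 with and without Gfap. These ratios were computed after the values of the genes and markers had been seen. The shares of 0.176% and 0.304% depend on the sum chosen, and 3.52% of all genes were lower without overlap when not divided by it. They are thus no measure of how unusual Mt1 or Mt2 was. The ratio of 18.6% for Mt2 came from 3xCR replicate 4, the library with the lowest astrocyte sum.

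Markers of other cell types differed with the groups as well. Summed, 12 microglia markers had 37101 to 65616 normalized counts in the 3xCR tumors and 18959 to 33633 in the GPC6 tumors, without overlap. At an unadjusted p under 0.05 (limma), 6 of 12 were below the 3xCR tumors, against 1.92% of all genes. C1qa, the most abundant, was among these 6. None of the 12 was at 0 in any library. Neuron markers had a higher mean log2 value in the GPC6 tumors for 15 of 15 genes (median log2 fold change 1.63, 3 past an unadjusted p of 0.05), and their sum was 10123 to 16864 normalized counts in the 3xCR tumors and 14273 to 79851 in the GPC6 tumors. Macrophage and monocyte markers had a lower one for 12 of 12 (median -0.68) and proliferation markers for 14 of 14 (median -0.69), and none of these passed an unadjusted p of 0.05. The part of these cell types in the differences of the metallothioneins and of the NRF2 targets was not tested.

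**Figure D3:**
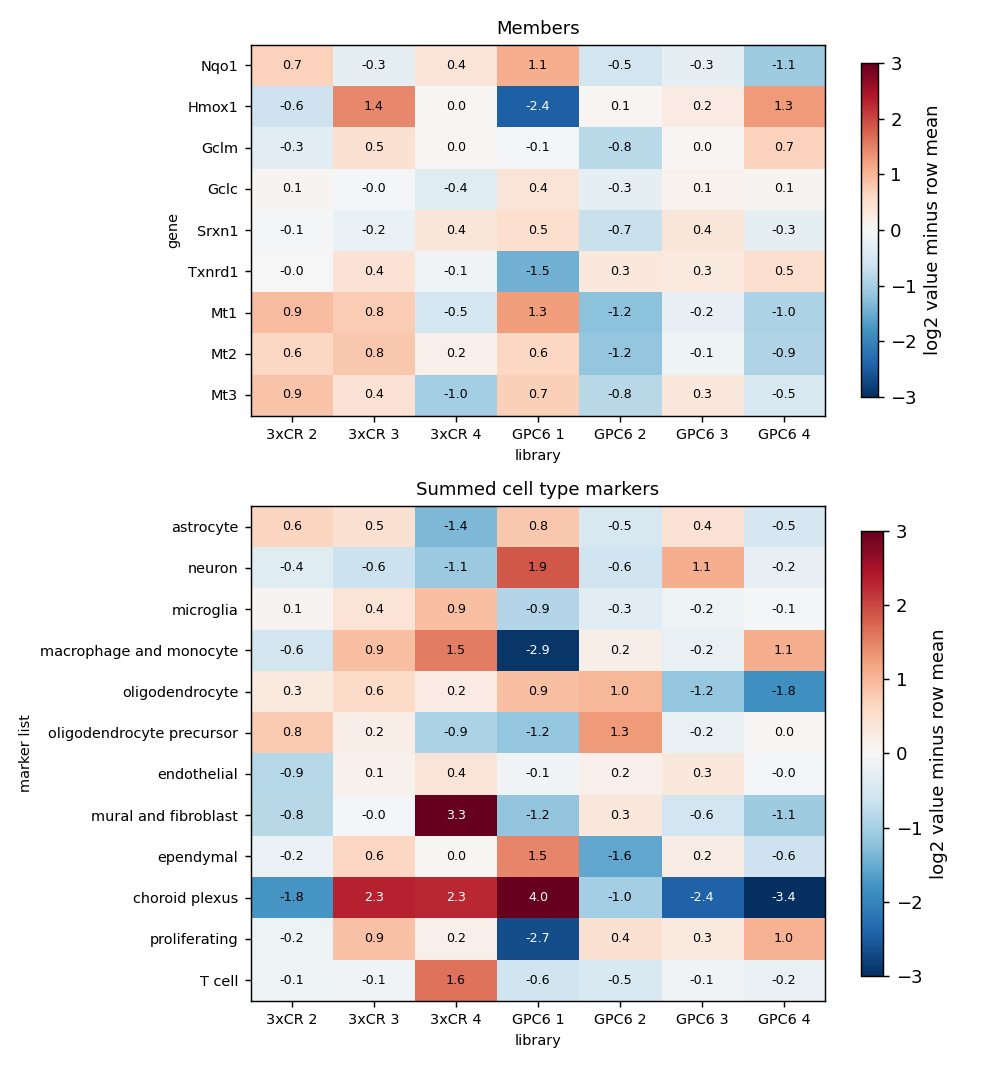
Log2(normalized count + 1) of the 9 genes, and log2 summed level of cell type marker lists, in each library as the difference from the mean over the 7 libraries; colors are cut at 3 log2 units, the printed values are not, and the erythrocyte list is left out because 3 of its 7 genes were in the table. The metallothioneins and the astrocyte list are highest in 3xCR replicates 2 and 3 and GPC6 replicate 1, and Hmox1 (-2.44), Txnrd1 (-1.45) and the proliferation list (-2.67) are lowest in GPC6 replicate 1.

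Gclc and Gclm encode the catalytic and the modifier subunit of glutamate-cysteine ligase, the rate-limiting enzyme of glutathione synthesis. Gclc (chr9:77754535-77794485, plus strand) was the steadiest of the 9 genes, with 682, 632 and 504 normalized counts in the 3xCR tumors and 844, 536, 690.1 and 685 in the GPC6 tumors. The highest library was 1.67-fold above the lowest, and the groups overlapped throughout. Its log2 fold change was 0.18 with an SE of 0.23 (limma, Benjamini-Hochberg adjusted p = 0.823), and the 95% interval of -0.34 to 0.70 bounds the difference more closely than for any other member.

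Gclm (chr3:122245557-122270732, plus strand) had 375, 658 and 483 normalized counts in the 3xCR tumors and 458, 270, 489 and 762 in the GPC6 tumors. GPC6 tumors were both the highest and the lowest of all. Between the groups the log2 fold change was -0.09 with an SE of 0.37 (limma, Benjamini-Hochberg adjusted p = 0.952). Exons of Gclm share 296 bases with the antisense gene Gm17494 and 244 with the pseudogene Gm6061, whose reads may be split between them. The ratio of Gclc to Gclm, that of the 2 subunit transcripts, lay between 0.899 and 1.99 and did not separate the groups (exact permutation p = 0.571).

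Srxn1 encodes sulfiredoxin, which restores overoxidized peroxiredoxins, and Txnrd1 encodes the cytosolic thioredoxin reductase. Promoters of both and of Gclm are shown because they carry the core of the antioxidant response element, in capitals, searched as TGACNNNGC or TGAGNNNGC on both strands (RefSeq, GRCm38.p6, plus strand).
Srxn1, chr2:152105274-152105573: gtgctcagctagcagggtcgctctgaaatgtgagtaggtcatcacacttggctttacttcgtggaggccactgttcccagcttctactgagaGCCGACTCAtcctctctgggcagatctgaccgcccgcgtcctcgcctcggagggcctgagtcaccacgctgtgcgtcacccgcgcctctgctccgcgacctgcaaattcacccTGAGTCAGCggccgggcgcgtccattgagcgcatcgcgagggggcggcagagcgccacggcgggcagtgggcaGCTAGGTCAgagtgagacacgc
Txnrd1, chr10:82858956-82859255: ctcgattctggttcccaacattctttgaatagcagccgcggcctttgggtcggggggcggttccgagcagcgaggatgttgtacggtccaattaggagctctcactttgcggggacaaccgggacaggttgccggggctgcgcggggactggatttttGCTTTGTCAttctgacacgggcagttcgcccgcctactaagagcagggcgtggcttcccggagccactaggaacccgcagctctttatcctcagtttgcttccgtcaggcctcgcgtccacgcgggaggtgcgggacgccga
Gclm, chr3:122245307-122245606: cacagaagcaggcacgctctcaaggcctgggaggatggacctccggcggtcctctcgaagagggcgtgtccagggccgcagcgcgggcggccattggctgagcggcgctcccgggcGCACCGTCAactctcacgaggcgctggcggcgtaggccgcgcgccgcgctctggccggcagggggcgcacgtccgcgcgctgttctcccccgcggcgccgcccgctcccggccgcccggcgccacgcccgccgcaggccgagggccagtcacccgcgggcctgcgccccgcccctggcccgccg
Srxn1 held 3 matches, at -158, -45 and 29 bases from the start, where 27.8% of promoters held at least 1 and 0.630% at least 3. The second form of the motif was added after the windows had been read. With TGACNNNGC alone, which 12.4% of promoters held, Srxn1 had 1 match, Gclm, this window of Txnrd1 and Mt2 kept theirs, and Mt3 had 0. Txnrd1 held 1 in 1 of its 3 promoter windows, Gclm held 1, and the letters were not in the window of Nqo1. With both forms Mt2 and Mt3 held 1 match each as well, so that the matches do not divide the 2 families. No promoter entry was used for Hmox1 or Gclc.

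Srxn1 (chr2:152105516-152111376, plus strand) had 950.4, 859 and 1265 normalized counts in the 3xCR tumors and 1407, 626, 1268 and 802 in the GPC6 tumors. The highest and the lowest library were again both of the GPC6 group, replicates 1 and 2. The means were nearly equal, 1025 ± 213 (SD, n = 3) and 1026 ± 371 (SD, n = 4), with a log2 fold change of -0.05 with an SE of 0.33 (limma, Benjamini-Hochberg adjusted p = 0.968).

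Txnrd1 (chr10:82833951-82897712, plus strand) had 2615, 3552 and 2445 normalized counts in the 3xCR tumors and 957, 3232, 3217 and 3709.9 in the GPC6 tumors. GPC6 replicate 1 stood apart from all others, and the other 3 GPC6 tumors lay in or above the upper part of the 3xCR range. Over all libraries the log2 fold change was -0.20 with an SE of 0.48 (limma, Benjamini-Hochberg adjusted p = 0.908) and 0.25 without GPC6 replicate 1. The ratio of Txnrd1 to Srxn1 was 0.680 in that library and 1.93 to 5.16 in the others (exact permutation p = 1.0 between the groups).

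Nqo1, which encodes the quinone reductase that serves as the classic readout of NRF2 activity, was the least abundant member, with 41.0 normalized counts per kilobase. It lies on the minus strand at chr8:107388225-107403206. Its normalized counts were 91.5, 46.5 and 74.6 in the 3xCR tumors and 122, 38.5, 46.1 and 26.7 in the GPC6 tumors. GPC6 replicate 1 was the highest of all, and the other 3 GPC6 tumors were below every 3xCR tumor, replicate 3 by less than the worth of 1 read. The log2 fold change was -0.46 with an SE of 0.56 (limma, Benjamini-Hochberg adjusted p = 0.816), and -0.89 without GPC6 replicate 1 (limma, unadjusted p = 0.0693, Benjamini-Hochberg adjusted p = 0.901). It was -0.18 without GPC6 replicate 4, -0.25 without 3xCR replicate 2 and -0.74 without 3xCR replicate 3. The genes most like Nqo1 over the 7 libraries were Nr1d2, Alkbh7 and Tmem202, with root mean square differences of 0.216 to 0.247 log2 units against a median of 0.860 over all genes.

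Hmox1, the inducible heme oxygenase, varied the most. It lies on chromosome 8 as well (chr8:75093621-75100589, plus strand), far from the metallothioneins. Its normalized counts were 744, 3135 and 1185 in the 3xCR tumors and 210.2, 1204, 1360 and 2771 in the GPC6 tumors, a 14.9-fold span. Each group held a tumor with high and a tumor with low Hmox1, and 5 of 7 libraries lay in the range that the groups shared. The log2 fold change was -0.50 with an SE of 0.86 (limma, Benjamini-Hochberg adjusted p = 0.871) and 0.24 without GPC6 replicate 1, and the 95% interval of -2.50 to 1.49 leaves changes of either sign.

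The genes most like Hmox1 were Orc1, Ttk and Cks2, of DNA replication and mitosis, with root mean square differences of 0.248 to 0.288 log2 units against a median of 1.27 over all genes. The proliferation markers had their lowest sum in GPC6 replicate 1, as Hmox1 did, and were highest in GPC6 replicate 4 and 3xCR replicate 3, the libraries with the most Hmox1. Macrophage and monocyte markers summed to 1742 normalized counts in GPC6 replicate 1 against 8914 to 38111 in the others. Their highest sum was in 3xCR replicate 4, where Hmox1 had 1185 normalized counts. In 3xCR replicate 3, the library with the most Hmox1, the sum was 24710. Whether dividing cells or macrophages took part in the spread of Hmox1 was not tested.

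Among the NRF2 targets, the order per length was Hmox1 (966 normalized counts per kilobase), Txnrd1 (848), Srxn1 (365), Gclc (191), Gclm (89.3) and Nqo1 (41.0). With this length Hmox1 was above Txnrd1 in 3 of 7 libraries, so these neighbors did not differ beyond their spread, and Txnrd1 was above Srxn1 in 6 of 7. Each of the later steps held in all 7 libraries. The place of Txnrd1 depends on the length taken. Per kilobase of all its exons together it was at 398, where Hmox1 was at 866 and Srxn1 at 364. The 9 genes did not share 1 profile. The closest pairs were Gclc with Srxn1 (root mean square difference 0.366 log2 units) and Mt1 with Mt2 (0.376), and the farthest was Hmox1 with Mt1 (1.84). GPC6 replicate 1 held the highest value of 4 members and the lowest of 2, and 31.3% of all genes were highest and 31.3% lowest there. GPC6 replicate 2 held the lowest value of 4 members, Gclm, Srxn1, Mt1 and Mt2.

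The genes that control NRF2 were described next. Nfe2l2 had 671, 810.2 and 1297 normalized counts in the 3xCR tumors and 371, 550.3, 699 and 686 in the GPC6 tumors. The GPC6 tumors were in the lower part of the range, with a small overlap, and the log2 fold change was -0.67 with an SE of 0.32 (limma, unadjusted p = 0.0706, Benjamini-Hochberg adjusted p = 0.730). For Keap1, its repressor, the log2 fold change was 0.06 with an SE of 0.21. Of 16 regulators, 6 had a higher and 10 a lower mean log2 value in the GPC6 tumors, and Maff, a small MAF partner of NRF2, was the only 1 past an unadjusted p of 0.05 (1 of 16, where 4.66% of all genes passed and 1.92% were lower). Maff had 201, 193 and 249 normalized counts in the 3xCR tumors and 97.4, 121, 174 and 82.3 in the GPC6 tumors, without overlap, as 3.52% of all genes that were lower (log2 fold change -0.90, limma, unadjusted p = 0.0228, Benjamini-Hochberg adjusted p = 0.730).

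In the comparison of all 7 libraries, further NRF2 targets passed the test no more often than other genes. Of 44 tested, 34 (77.3%) had a lower mean log2 value, against 51.7% of all genes, and their median log2 fold change was -0.29 against -0.02. Of these, 2 (4.55%) passed an unadjusted p of 0.05, where 4.66% of all genes did, and none passed after adjustment with limma and the Benjamini-Hochberg method. When each library was left out in turn, 30 to 36 of them were lower. The share past an unadjusted p of 0.05 (limma) changed with the setting. Without GPC6 replicate 1 it was 3 of 43 (6.98%), against 3.14% of all genes. With a block for the replicate number it was 5 of 44 (11.4%), where 678 of all genes passed. Without GPC6 replicate 2 it was 3 of 43 (6.98%), where 1401 of all genes passed. The genes of 1 list share regulators and cell types and are not independent of each other.

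Glutathione and thioredoxin genes were mixed, with 6 of 17 higher and 11 lower. Gsr, glutathione reductase, was the 1 of 17 past an unadjusted p of 0.05 (4.66% of all genes), with 1077, 1010.2 and 994 normalized counts in the 3xCR tumors and 643, 753, 707 and 752 in the GPC6 tumors. Its groups did not overlap, as for 3.52% of all genes with the GPC6 tumors lower, with a log2 fold change of -0.53 and an SE of 0.17 (limma, unadjusted p = 0.0156, Benjamini-Hochberg adjusted p = 0.730). Slc7a11, the cystine transporter, had 376 to 1523 normalized counts in the 3xCR tumors and 394 to 1674 in the GPC6 tumors. The 6 genes of NADPH supply, 2 higher and 4 lower, were all at their lowest in GPC6 replicate 1.

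Iron and heme genes were lower in 8 of 9 cases and detoxification genes in 11 of 12, with median log2 fold changes of -0.29 and -0.46. At an unadjusted p under 0.05, 1 of 9 and 0 of 12 passed, where 4.66% of all genes did. Blvrb, which encodes biliverdin reductase B, had 275, 353 and 623 normalized counts in the 3xCR tumors and 133, 181, 252 and 301 in the GPC6 tumors. Its groups overlapped (log2 fold change -0.92, limma, unadjusted p = 0.0453, Benjamini-Hochberg adjusted p = 0.730). Ftl1, the light chain of the iron store ferritin, ranged from 19019 to 35492 normalized counts in the 3xCR tumors and from 7495 to 26393 in the GPC6 tumors. The microglial sum given above was lower in the same tumors, and its part in these lists was not tested.

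Among genes of metal response and zinc transport, Slc39a10 was higher in the GPC6 tumors. Slc39a10, a zinc importer of the cell membrane, had 768, 740.4 and 492 normalized counts in the 3xCR tumors and 1198, 1047, 1172 and 1470.2 in the GPC6 tumors. All 4 GPC6 tumors were above all 3xCR tumors, as for 2.8% of all genes. The log2 fold change was 0.89 with an SE of 0.23 (limma, unadjusted p = 0.00525, Benjamini-Hochberg adjusted p = 0.730). Of the 22 genes of this list, 7 were higher and 15 lower, and Slc39a10 was the only 1 past an unadjusted p of 0.05, 1 of 22 where 4.66% of all genes passed. The largest log2 fold change of the list was that of Slc30a3, 2.75, which did not pass. Mtf1, the factor that binds the metal response element, had a log2 fold change of 0.18 with an SE of 0.25.

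**Figure D4:**
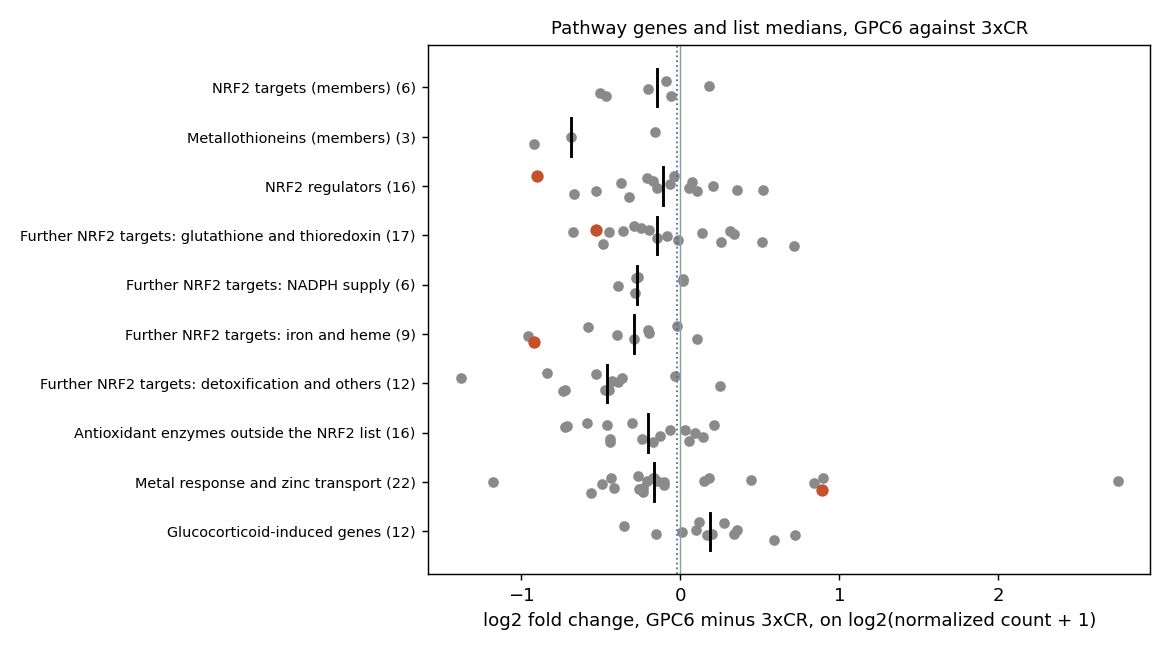
Log2 fold change of GPC6 against 3xCR for each tested gene of the member lists and of the lists around them, with the median of each list as a bar, the median of all genes as a dotted line, the number of genes in brackets and genes at an unadjusted p under 0.05 in red. Dots of the iron and heme list (8 of 9) and of the detoxification list (11 of 12) lie mostly below 0, and the red points in the lists of regulators, of glutathione, of iron and heme and of zinc transport are Maff, Gsr, Blvrb and Slc39a10.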

How the data were processed

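RNA-Seq of tumor tissue from 7 mice was used, 3 of the 3xCR and 4 of the GPC6 group, with groups taken from the sample labels. The authors built TruSeq stranded mRNA libraries, aligned the reads to mm10 with STAR 2.5.0a, counted them on genes and normalized the counts with DESeq2 1.20.0. The deposited values are a signal per gene in which each library's counts were divided by its size factor, which assumes that most genes do not change and does not correct for length. Entries whose names had turned into dates (25 of 19282, 0.254% to 0.361% of the reads of a library) were left out. Whole reads were recovered in 100% of values (within 0.01 of a whole number), 7197692 to 18879762 per library.

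Groups were compared with limma 3.58.1 (R 4.3.3) with a variance trend on log2(normalized count + 1), two-sided, over the 14782 genes with a mean of at least 10, with Benjamini-Hochberg adjustment. It was tested on simulated data. For recovered reads, edgeR 4.0.16 (quasi-likelihood) and DESeq2 1.42.0 were alternatives. Others were pseudocounts, filters, scalings, weights per library, the variance without a trend, a block for the replicate number and each library left out, as well as 1 without GPC6 replicates 1 and 2 that was added after seeing the data. Genes were placed with the GENCODE annotation of GRCm38 (96.0% of symbols matched). Promoters were found in the RefSeq table (GRCm38.p6) for 7 of 9 members.

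Members and lists were chosen with earlier results of these data known. The text names all members, Gpc6, Nfe2l2, Keap1, Mtf1 and Mt4, list genes past an unadjusted p of 0.05 without overlap, examples at the extremes of a list, the most abundant cell type markers and the 3 genes most like each of Nqo1, Hmox1, Mt1 and Mt3. Blvrb, Slc7a11 and the NADPH genes were named after their values were seen. Also chosen then were the ratios to astrocyte markers and between members, the joint count over further NRF2 targets, the counts for GPC6 replicate 1, the transcript used for length (3 were tried) and the promoters printed. The antioxidant response element was first searched as TGACNNNGC alone (12.4% of promoters) and widened after the windows had been read.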

Additional observations from a re-analysis of the deposited data

Results flagged for a closer look

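Txnrd1 in GPC6 replicate 1 stood apart from the other GPC6 tumors, at 957 normalized counts against 3217 to 3709.9. The gap to the nearest tumor was 0.895 of the whole range on the log2 scale, above the critical value of 0.829 for 4 samples. The 3xCR tumors had 2445 to 3552 normalized counts. This was 1 of 26 quantities examined in this way, among which chance would give about 1.3.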

How the results depend on the processing

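Nqo1, Gclc, Mt1 and Mt2 kept the direction of their difference under all 19 alternatives. Mt2 passed an adjusted p of 0.05 with weights per library alone (log2 fold change -0.99, limma, Benjamini-Hochberg adjusted p = 0.0299, over alternatives 0.0299 to 0.999). With these weights 1962 genes passed after adjustment and 5105 at an unadjusted p under 0.05, 2 members among them. DESeq2 gave 9 and 1793. Without 1 library, 119 (without 3xCR replicate 4) to 1401 (without GPC6 replicate 2) genes and 0 to 2 members (Mt1 and Mt2, without GPC6 replicate 1) passed unadjusted, and without GPC6 replicates 1 and 2 it was 1 member, Mt2. Of the estimates that changed sign, none passed an unadjusted p of 0.05. With weights Srxn1 was at 0.39 (limma, unadjusted p = 0.0629), and with DESeq2 at 0.013. Without GPC6 replicates 1 and 2, Hmox1 was at 0.47, Gclm at 0.31 and Txnrd1 at 0.29. Leaving out 1 library gave -1.26 to -0.66 for Mt2, -1.20 to -0.37 for Mt1, -0.89 to -0.18 for Nqo1, 0.05 to 0.29 for Gclc, -1.0 to 0.24 for Hmox1, -0.33 to 0.17 for Gclm, -0.23 to 0.16 for Srxn1, -0.40 to 0.25 for Txnrd1 and -0.71 to 0.23 for Mt3. With the replicate block, Hmox1 was at 0.24 and Txnrd1 at 0.25, and 2 members (Mt1 and Mt2) passed unadjusted. In that fit GPC6 replicate 1, which shares its number with no 3xCR library, does not enter the comparison. Numbers 2, 3 and 4 gave correlations of -0.19, 0.12 and 0.30 between deviations of same-numbered tumors. Closest to their own number were 1 of 3 3xCR and 2 of 3 GPC6 libraries. Whether same-numbered tumors shared more than a number, such as a litter or day, cannot be told from these values or the labels. Of the genes at an unadjusted p under 0.05, 405 were higher and 284 lower, 485 and 228 with scaling to an equal total, and 335 and 381 with scaling to an equal upper quartile. The cause of these differences between settings was not tested.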

Other observations

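Glucocorticoids also induce metallothioneins, and 12 genes known to respond to them were examined. Of these, 11 were at their highest in GPC6 replicate 1, the library with the most Mt1, where 31.3% of all genes were highest. Fkbp5, a chaperone of the glucocorticoid receptor, was the exception, with 1743 normalized counts there and 1793 in 3xCR replicate 4. Plin4, a lipid droplet protein, had 1631 normalized counts in GPC6 replicate 1 and 9.67 to 140.5 in the other libraries. Sgk1, the most abundant of the list, had 3476 there and 1276 to 2431 elsewhere. That library was also the highest for 12 of 15 neuron, 8 of 13 astrocyte, 6 of 8 choroid plexus and 4 of 5 ependymal markers, with a choroid plexus sum of 12679 normalized counts against 72.0 to 3833 in the others. A link of the glucocorticoid list with Mt1 or with these cell types was not tested. Between the groups 10 of 12 had a higher mean log2 value in the GPC6 tumors, and none passed an unadjusted p of 0.05 (limma), where 4.66% of all genes did. Of 16 antioxidant enzymes outside the NRF2 list, 5 were higher and 11 lower, and none passed an unadjusted p of 0.05. Gpx1, a glutathione peroxidase, had the largest difference, with a log2 fold change of -0.72 (limma, Benjamini-Hochberg adjusted p = 0.730).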
